A study of Paeonia lactiflora with 8 samples.

Results

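Flowers and young fruits of the herbaceous peony Paeonia lactiflora were set as reproductive organs against roots and leaves as vegetative organs, with 4 libraries on each side. For each gene, the mean of the flower and fruit means was compared with the mean of the root and leaf means. A gene passed with an adjusted p under 0.05 and a log2 fold change of at least 1 in either direction. It was called higher when it passed and the mean level of flower and of fruit each exceeded that of root and of leaf, and called lower in the mirrored case. Of 27939 genes tested, 971 were called higher (3.48%) and 790 were called lower (2.83%), or 6.3% in all.

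Each organ had 2 replicate libraries of one species, and the labels name no cultivar, treatment or pooling. Flower was sampled in the blossom period, fruit in the young fruit period, and root and leaf in the blossom period. Organ and period therefore cannot be told apart for fruit, and flower and fruit share no developmental stage. The labels do not say which parts of the flower or fruit were taken. By its title the study concerns the tissue-specific control of paeoniflorin, a monoterpene glycoside for which peony roots are known.

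A flower is built under MADS-box regulators that act in combinations to specify sepals, petals, stamens and carpels, and carpels with their ovules give rise to the fruit. Root and leaf are the sites of nutrient uptake and photosynthesis, and both can hold large starch reserves. Flowers and growing fruits import sugars made in leaves and enlarge through loosening of their cell walls.

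Poly(A) RNA was read in pairs on an Illumina HiSeq 2000. Estimated counts summed to between 30399492 and 49421130 per library over 30177 assembled genes. Levels are given as CPM, counts scaled to the library's size, after edgeR's TMM correction for library composition, and a pair of values stands for replicates 1 and 2 of an organ. Log2 fold changes run from reproductive over vegetative and carry their standard error. Every adjusted p comes from the quasi-likelihood test of edgeR with Benjamini-Hochberg adjustment across the 27939 genes. The labels do not say whether replicates came from separate plants, so p-values measure the spread between these libraries, which may be technical. IDs named TAR1-A, a name used in yeast for transcripts antisense to ribosomal RNA, took between 1.77% and 41.4% of a library's counts, with the most in flower replicate 2. Petal and stamen MADS genes summed to 1650 and 1310 CPM in flower and at most 8.98 CPM in any other library. AG type MADS genes, which mark stamens, carpels and fruits, summed to 0.66 and 0.453 CPM in flower and 95.5 and 124 CPM in fruit, against 0.243 and 0.24 CPM in root and 12.5 and 8.15 CPM in leaf. These defining markers were thus near absent from the flower libraries and lower there than in leaf. Rubisco small subunit and light-harvesting genes summed to 108000 and 78500 CPM in leaf and at most 7350 CPM elsewhere. Fruit replicate 2 stood apart, with 2520 CPM from seed storage genes against 45.6 CPM in fruit replicate 1. In bulk samples, fewer cells of a type and less RNA per cell cannot be told apart.

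Reproductive organs differed from vegetative organs about as often upwards as downwards. In total 1443 genes passed as higher (5.16%) and 1434 as lower (5.13%), together 10.3% of the genes tested, and 8271 had an unadjusted p under 0.05. The genes called higher had a median log2 fold change of 2.23 and those called lower of -2.43, against -0.14 over all genes tested. All 4 reproductive libraries lay above all 4 vegetative libraries for 627 of the 971 higher genes (2.24% of genes tested), and below them for 451 of the 790 lower genes (1.61%). Whether or not they passed, 1076 genes were so separated upwards (3.85%) and 1289 downwards (4.61%). The even split moved with the scale. With library totals that left out the 20 highest genes in place of TMM, 38.8% of the genes that passed were higher, against 50.2%. The median over all genes was then -0.27. The split moved the other way with edgeR's RLE scaling, at 54.4% higher, and without TAR1-A, at 55.7%. RLE scaling called 1064 genes higher and 687 lower, and removal of TAR1-A 1080 and 641.

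Flower stood farther from the vegetative organs than fruit did. Among the genes called higher, the flower mean exceeded the mean of root and leaf by a median of 2.34 log2 units and the fruit mean by 1.12, on log2(CPM + 0.5). Among those called lower the medians were -2.35 for flower and -1.59 for fruit. The flower mean was the farther of the pair in 784 of the 971 higher genes and in 606 of the 790 lower genes. Taken one pair of organs at a time, flower passed as higher against root for 3120 genes (11.2%) and against leaf for 2604 (9.32%), and fruit for 347 (1.24%) and 1003 (3.59%). As lower, flower passed against root for 2624 genes (9.39%) and against leaf for 2794 (10%), and fruit for 228 (0.816%) and 1691 (6.05%). These comparisons share libraries. Genes that passed in all 4 pairs in the same direction numbered 40 higher (0.143%) and 29 lower (0.104%), and the libraries of all 40 and all 29 were separated between the sides. Between flower and fruit themselves, 2252 genes were higher in flower (8.06%) and 1859 lower in flower (6.65%), and of 165 genes named by rule 36 were higher and 25 lower in flower.

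**Figure D1:**
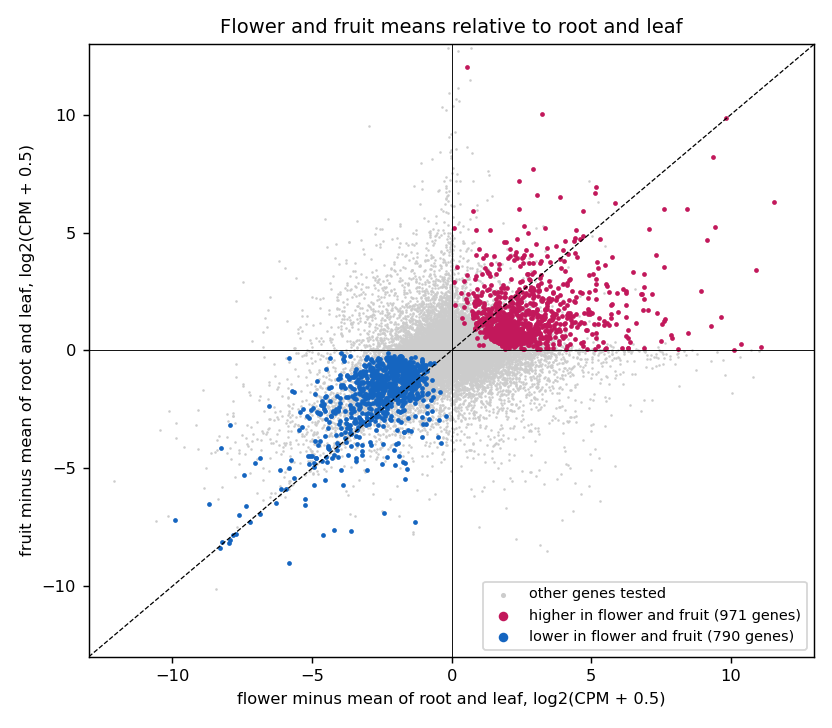
Each point is a gene; the x axis gives the flower mean and the y axis the fruit mean, each minus the mean of root and leaf, on log2(CPM + 0.5). Most of the 971 genes called higher lie below the dashed line of equality and most of the 790 called lower lie above it, since flower was the farther organ in 784 and 606 of them.

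The counts of calls depended on every library. Without leaf replicate 2, 15 genes were called higher and 13 lower, and without leaf replicate 1, 45 and 46. Without flower replicate 1 the counts were 160 and 108, and without flower replicate 2 they were 311 and 226. Without fruit replicate 1 they were 389 and 200, without fruit replicate 2 they were 457 and 197, without root replicate 1 they were 401 and 280, and without root replicate 2 they were 675 and 681, of which 540 and 503 were among the 971 and the 790. The sides themselves changed less, but genes were called by side in the same libraries, so kept sides are no separate support. Of the 971 higher genes, between 851 and 968 kept flower and fruit above root and leaf in these 8 fits, and of the 790 lower genes between 655 and 778 kept them below. Of the 165 named genes, 7 passed in all 8 fits, namely FBP2, SOC1, RT, SRG1, GAST1, MYB305 and At4g24660 (comp16517_c0). Another 18 passed in none: OEP164, BAM9, STP13, LAC14, ARR2 (comp20238_c0), AHP1, HAB1, ERF5, MYB3, UPB1, WRKY4, BAG1, comp7248_c0, ARF, CAF1-11, Rfc5, RPL10 and CRY2. The 165 kept their sign in every fit, but they were chosen by direction in the same libraries.

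The largest rise belonged to At4g24660 (comp16517_c0), named after an Arabidopsis gene of the zinc finger homeodomain family. It stood at 1940 and 1480 CPM in flower and 57.3 and 32.3 CPM in fruit, against 0.101 and 0.103 CPM in root and 0.0221 and 0.0652 CPM in leaf. Every reproductive library was far above every vegetative one, and the log2 fold change was 11.95 ± 0.55 (adjusted p = 0.00315). The flavonol 3-O-methyltransferase comp17663_c0, an enzyme type that methylates flavonols, reached 2010 and 304 CPM in flower and 357 and 692 CPM in fruit, against 0.547 and 1.95 CPM in root and 1.77 and 0.805 CPM in leaf (9.26 ± 0.99). Its flower and fruit libraries overlapped each other but not those of root and leaf. SN1 (comp5815_c0), a snakin type antimicrobial peptide of the gibberellin-responsive GASA family, had 674 and 517 CPM in flower and 84.3 and 301 CPM in fruit, against 0.689 and 0.24 CPM in root and 4.47 and 4.7 CPM in leaf (7.86 ± 0.65). GAST1 (comp15214_c0), named after a tomato gene of the same family, showed the opposite pattern. It had 0 and 0.0566 CPM in flower and 0 in both fruit libraries, against 14.1 and 6.78 CPM in root and 307 and 192 CPM in leaf. A single count on the reproductive side gave a vegetative to reproductive ratio of 18800 with a counting interval of 3370 to 742000.

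Other large rises included genes of sugar handling. INVA (comp22856_c0), an acid invertase that splits sucrose, had 1000 and 548 CPM in flower and 235 and 166 CPM in fruit, against 4.28 and 16 CPM in root and 0.31 and 0.522 CPM in leaf (7.58 ± 0.63). All reproductive libraries were above all vegetative ones, with root above leaf. SWEET7 (comp16372_c0), a sugar exporter of plant cell membranes, had 88.1 and 48.3 CPM in flower and 44.8 and 50.5 CPM in fruit, against 27 and 7.68 CPM in root and 0.133 and 0 CPM in leaf (5.71 ± 0.76). Here root replicate 1 lay nearest to the reproductive libraries and leaf was near 0. The 12 largest rises further held FBP2, described below, and the GDSL lipase At5g03820 (comp18075_c0, 9.86 ± 1.81), the organic cation transporter OCT2 (comp23324_c0, 6.28 ± 0.84), the auxin-conjugating enzyme GH3.1 (comp21169_c0, 6.19 ± 0.92), the acyltransferase At3g50280 (comp22560_c0, 6.10 ± 0.74), MYB44 (comp6363_c0, 5.78 ± 0.72) and the receptor kinase At2g25790 (comp19943_c0, 5.69 ± 0.62). At5g03820 had 0.293 CPM in fruit replicate 1 and 81.1 CPM in fruit replicate 2, so its fruit level rested on the library with seed storage transcripts. At2g25790 was highest in fruit, with 404 and 138 CPM, against 24.6 and 20.5 CPM in flower.

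The largest falls came from genes at high levels in root or leaf. GPT2 (comp22586_c0), a carrier of glucose 6-phosphate into plastids, had 0 and 0.0566 CPM in flower and 0 and 0.0244 CPM in fruit, against 351 and 61.1 CPM in root and 0.133 and 35.6 CPM in leaf. With 2 counts on the reproductive side, the vegetative to reproductive ratio was 8890 with a counting interval of 2460 to 73500. Leaf replicate 1 stood almost as low as the reproductive libraries. The 1,8-cineole synthase comp15294_c0, a monoterpene synthase by description, had 1.29 and 1.02 CPM in flower and 6.75 and 7.2 CPM in fruit, against 1760 and 186 CPM in root and 207 and 585 CPM in leaf (-7.77 ± 0.91). No reproductive library came near the lowest vegetative one. SRG1 (comp23275_c0), a dioxygenase described in the table as a gibberellin 20-oxidase, had 0.066 and 0.0566 CPM in flower and 11.7 and 6.86 CPM in fruit, against 45.3 and 34.1 CPM in root and 329 and 281 CPM in leaf (-7.14 ± 0.35). The organs were ordered leaf, root, fruit and flower without overlap.

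The other 8 of the 12 largest falls included enzymes of specialised metabolism and the cell wall. The beta-glucosidase comp17023_c0 (-7.35 ± 1.19), of a family that releases sugars from glucosides, had 0.198 and 0.113 CPM in flower and 4.61 and 3.05 CPM in fruit, against 2410 and 79 CPM in root and 7.87 and 19.2 CPM in leaf. The root replicates of this gene differed from each other more than leaf did from fruit. E6 (comp19489_c0, -6.62 ± 0.71), named after a cotton fibre gene, CSLG2 (comp23182_c0, -6.25 ± 0.86), a cellulose synthase-like gene, and EXPB3 (comp22146_c0, -5.51 ± 1.32), a beta-expansin that loosens walls, were also lower. EXPB3 reached 21.1 CPM in fruit replicate 2 but at most 0.198 CPM in the other 3 reproductive libraries. The remaining 4 were a deoxyxylulose phosphate synthase and 3 entries named CYP71A1, described with the isoprenoid genes.

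**Figure D2:**
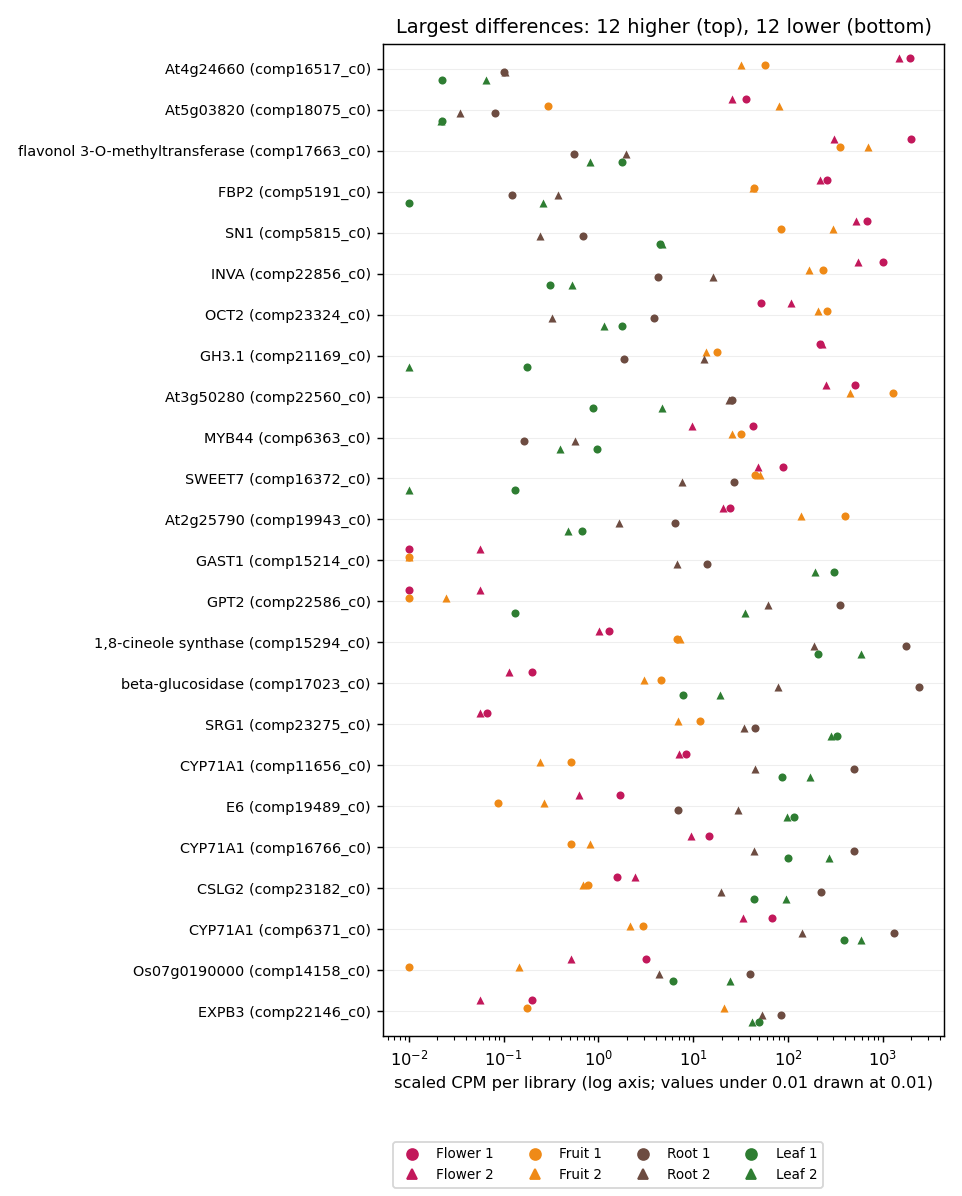
Scaled CPM of every library on a log axis for the 12 genes with the largest rise (top) and the 12 with the largest fall (bottom), with circles for replicate 1 and triangles for replicate 2. The upper genes have all flower and fruit symbols to the right of all root and leaf symbols, as for At4g24660 with 32.3 CPM or more against 0.103 CPM or less, and the lower genes have them to the left.

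More floral organ identity MADS genes than not were called higher in the reproductive organs, and SOC1 and SVP, of the flowering-time MADS genes, were lower. Of 12 floral MADS genes tested, 7 were called higher, a share of 58.3% against 6.3% of all genes. Another 2 passed without a shared side and 3 did not pass. The median log2 fold change was 7.28, or 7.02 with genes lacking counts on one side set to a 3-count bound, against -0.14 over all genes. FBP2 (comp5191_c0), a SEPALLATA type gene named in petunia that supports every floral organ, had 261 and 218 CPM in flower and 43.5 and 42.5 CPM in fruit, against 0.122 and 0.376 CPM in root and 0 and 0.261 CPM in leaf (9.10 ± 0.90, adjusted p = 0.00684). It passed in all 4 pairs of organs. DEFA (comp24526_c0), a petal and stamen gene named in snapdragon, had 296 and 202 CPM in flower and 0.176 and 1.83 CPM in fruit, against 0.284 and 0.804 CPM in root and 0.531 and 0.522 CPM in leaf (4.86 ± 0.77). Its fruit libraries overlapped the vegetative ones. AGL1 (comp12596_c0, 7.45 ± 0.50), a carpel and fruit gene of the AG type named here after its values were seen, averaged 0.556 CPM in flower and 37.2 CPM in fruit, against 0 CPM in root and 0.242 CPM in leaf.

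Of the 12 flowering-time and other MADS genes tested, SOC1 and SVP were called lower, a share of 16.7% against 6.3% of all genes. The rest did not pass. SOC1 (comp25395_c0), a promoter of the floral transition in Arabidopsis, had 6.27 and 4.36 CPM in flower and 2.11 and 2.12 CPM in fruit, against 45.4 and 67 CPM in root and 83.6 and 52.7 CPM in leaf (-4.20 ± 0.30, adjusted p = 0.00401). SVP (comp10418_c0), a repressor of that transition, had 0 and 0.17 CPM in flower and 2.5 and 1.29 CPM in fruit, against 19.1 and 20.1 CPM in root and 7.7 and 12.7 CPM in leaf (-5.24 ± 0.73). Neither gene overlapped between the sides. Among 44 regulators of carpels, ovules and floral pattern, 6 were called higher and 1 lower, a share of 15.9%. AP2 (comp7792_c0, 1.78 ± 0.27), a floral organ and seed regulator, had 70.8 and 101 CPM in flower and 47.8 and 39.2 CPM in fruit, against 12 and 21.7 CPM in root and 18.1 and 19.3 CPM in leaf. DIVARICATA (comp14080_c0, 1.56 ± 0.31), a petal asymmetry gene of snapdragon, was higher, and ANT (comp11504_c0, -6.90 ± 1.08), a regulator of organ growth, was lower with its highest level in root. Of 59 homeodomain, KNOX and WOX genes, 7 were called higher and 3 lower, a share of 16.9%. A further At4g24660 entry (comp11821_c0, 2.94 ± 0.69) was higher, and BLH10 (comp22117_c0, -1.50 ± 0.23) and GL2 (comp22464_c0, -2.16 ± 0.23), an epidermal cell fate gene, were lower.

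Pollen and seed genes called higher were often high in a single reproductive organ. Of 14 pollen and anther genes, 3 were called higher, a share of 21.4% against 6.3% of all genes. SHT, a transferase that builds pollen coat phenolamides in Arabidopsis, had 856 and 951 CPM in flower and 191 and 91.3 CPM in fruit for comp20210_c0, against 0.507 and 0.856 CPM in root and 99.6 and 87.9 CPM in leaf (5.48 ± 0.41). Fruit and leaf overlapped for this gene. Its namesake comp20955_c0 (8.22 ± 1.08) had the same order of organs and also overlapped. Of 23 seed storage, oil body and LEA genes, 7 were called higher and 1 lower, a share of 34.8%, with a median of 2.83 against -0.14. LEA5 (comp19479_c0, 3.07 ± 0.50), of the late embryogenesis abundant proteins that protect dry tissue, had 2680 and 1560 CPM in flower and 610 and 208 CPM in fruit, against 268 and 475 CPM in root and 40.4 and 26.1 CPM in leaf. Fruit and root overlapped. OLE1 (comp23438_c0, 8.75 ± 2.11), an oil body oleosin, had 0.132 and 0.566 CPM in flower and 5.08 and 4750 CPM in fruit, against 0.203 and 0.0342 CPM in root and 0.0442 and 0.0217 CPM in leaf. Its level thus came from fruit replicate 2, and flower overlapped root. The peroxygenase PXG4 (comp19559_c0, -1.89 ± 0.41) was lower.

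Of 61 cutin, wax and suberin genes, 4 were called higher and 1 lower, a share of 8.2% against 6.3% of all genes. CER1 (comp22878_c0), which forms the alkanes of cuticular wax, had 849 and 1800 CPM in flower and 4.73 and 3.05 CPM in fruit, against 0.203 and 0.53 CPM in root and 0.973 and 4.87 CPM in leaf (6.11 ± 0.73). HTH (comp22063_c0, 7.24 ± 0.89), tied to cuticle formation and organ fusion in Arabidopsis, had 687 and 98 CPM in flower and 9.8 and 17.3 CPM in fruit, against 11 and 7.84 CPM in root and 0.0442 and 0 CPM in leaf. In both genes fruit overlapped a vegetative organ. FAR2 (comp17930_c0, -4.40 ± 0.56), a fatty acyl reductase, was lower and passed in all 4 pairs. Among 15 GDSL esterase and lipase genes, At5g03820 above was called higher and 3 were called lower, a share of 26.7% against 6.3% of all genes. The lower ones included GLIP1 (comp22005_c0, -3.35 ± 0.48) and At1g09390 (comp17122_c0, -2.05 ± 0.39). GLIP1 was low in flower only, at 1.58 and 0.34 CPM. Its fruit, at 77 and 53.3 CPM, overlapped root at 56.8 and 85.7 CPM and leaf at 115 and 73.5 CPM. Fruit and leaf also overlapped for At1g09390.

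Genes that extend or loosen walls were called higher more often than lower. Of 155 xyloglucan, expansin and cellulose genes, 23 were called higher and 9 lower, a share of 20.6% against 6.3% of all genes. The median of the list was 0. Of those called, 16 and 7 did not overlap, against 627 of 971 and 451 of 790 among all genes called. XTHB (comp21386_c0), a xyloglucan endotransglucosylase that cuts and rejoins hemicellulose, had 5220 and 3000 CPM in flower and 74.9 and 26.3 CPM in fruit, against 40 and 19 CPM in root and 11.8 and 12.4 CPM in leaf (4.59 ± 0.55). FLA16 (comp22544_c0), a fasciclin-like arabinogalactan protein, had 735 and 585 CPM in flower and 104 and 188 CPM in fruit, against 49.2 and 22 CPM in root and 76.3 and 49.2 CPM in leaf (2.72 ± 0.40). FLA16 separated the sides, whereas fruit and root overlapped for XTHB. XTH32 (comp20475_c0, -6.57 ± 0.79), of the same enzyme family as XTHB, went the other way, with 0.066 and 0.0566 CPM in flower and 3.41 and 0.537 CPM in fruit, against 245 and 126 CPM in root and 3.76 and 8.94 CPM in leaf. BGAL1 (comp21915_c0, -1.86 ± 0.30), a beta-galactosidase, was lower too.

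Of 95 pectin genes, 8 were called higher and 3 lower, a share of 11.6% against 6.3% of all genes. Under the scale without the 20 highest genes the counts were 5 and 4. MPE3 (comp22762_c0, 3.70 ± 0.60), a pectinesterase, had 408 and 132 CPM in flower and 184 and 46.1 CPM in fruit, against 13.9 and 8.2 CPM in root and 18.6 and 14.5 CPM in leaf. GAE1 (comp21720_c0, 1.79 ± 0.37), which makes the galacturonate precursor of pectin, was higher as well, and neither gene overlapped. A pair of polygalacturonases named At1g48100 (comp15757_c0, -4.79 ± 0.65, and comp18583_c0, -4.25 ± 0.39) were lower, both with their highest level in root. Of 79 laccase, lignin and secondary wall genes, 6 were called higher and 4 lower, a share of 12.7%. LAC14 (comp23236_c0, 3.05 ± 0.75), a laccase by symbol that the table describes as a nitrite reductase, had 1620 and 384 CPM in flower and 3220 and 1130 CPM in fruit, against 130 and 294 CPM in root and 237 and 61.4 CPM in leaf. It passed in none of the 8 fits that left out a library, nor in any of the 4 pairs of organs. XSP1 (comp19793_c0, -2.51 ± 0.45), a xylem subtilisin, was lower.

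Starch genes were called lower far more often than higher in flower and fruit. Of 53 starch metabolism genes, 14 were called lower and 1 higher, a share of 28.3% against 6.3% of all genes. The list median was -1.39 against -0.14 over all genes. With an offset for gene length in each library, 9 were called lower and 2 higher. AGPP (comp21389_c0), a glucose-1-phosphate adenylyltransferase that commits glucose to starch, had 99.2 and 67.2 CPM in flower and 101 and 92.1 CPM in fruit, against 2000 and 511 CPM in root and 325 and 394 CPM in leaf (-2.91 ± 0.49). PHO1 (comp19613_c0), a starch phosphorylase, had 2.48 and 2.6 CPM in flower and 11.6 and 17.2 CPM in fruit, against 1200 and 158 CPM in root and 33.4 and 38.3 CPM in leaf (-4.69 ± 0.67). Both genes separated the sides, with both root libraries above both leaf libraries. BAM9 (comp22657_c0, 1.44 ± 0.34), a beta-amylase family member, was the one called higher, and flower replicate 2 lay below root replicate 2.

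Among 80 genes of sugar transport and sucrose or galactosyl sucrose metabolism, 6 were called higher and 5 lower, a share of 13.8% against 6.3% of all genes. Under the scale without the 20 highest genes the counts were 3 and 4, so the list had no shared direction. Besides INVA, STP13 (comp12802_c0), a hexose carrier, was higher at 507 and 383 CPM in flower and 374 and 190 CPM in fruit, against 87.3 and 120 CPM in root and 173 and 86.5 CPM in leaf (1.61 ± 0.37). RFS2 (comp22804_c0, -2.46 ± 0.49), a galactosyl sucrose synthase described as a stachyose synthetase, and the alpha-galactosidase comp18161_c0 (-2.84 ± 0.52), which removes such galactose units, were lower.

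Plastid genes outside the photosystems were also called lower more often than higher. Of 138 genes of plastid division, import and protein quality control, 24 were called lower and 1 higher, a share of 18.1% against 6.3% of all genes. Their median was -0.93 against -0.14 over all genes. Of the 24, 8 separated the sides, against 451 of all 790 genes called lower. CD4B (comp21650_c0), a Clp protease ATPase of the plastid, had 198 and 194 CPM in flower and 456 and 239 CPM in fruit, against 546 and 350 CPM in root and 2170 and 1820 CPM in leaf (-1.86 ± 0.36). Fruit and root overlapped. The chaperonin comp18072_c0 (-2.85 ± 0.50), described as GroEL, had 51.9 and 28.8 CPM in flower and 104 and 75.6 CPM in fruit, against 408 and 104 CPM in root and 636 and 830 CPM in leaf. OEP164 (comp16961_c0, 1.23 ± 0.27) was the one called higher. CD4B did not pass with the length offset (-1.41, adjusted p = 0.0535).

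Of 36 chlorophyll and tetrapyrrole genes, 5 were called lower, a share of 13.9% against 6.3% of all genes. Another 13 passed as lower without a shared side, and the median was -1.31. With the length offset 3 were called lower. CHLG (comp17977_c0), the chlorophyll synthase, had 10.4 and 9.91 CPM in flower and 22.3 and 14.3 CPM in fruit, against 52.7 and 23.2 CPM in root and 133 and 150 CPM in leaf (-2.43 ± 0.33). Leaf stood well above all others and root lay just above fruit. GSA (comp16325_c0, -1.34 ± 0.32), which makes the tetrapyrrole precursor aminolevulinate, was lower and did not pass with the length offset (adjusted p = 0.0568). Photosystem, light-harvesting and Rubisco genes were called lower in 2 of 66 cases, a share of 3.03%, and passed as lower in 8. Rubisco small subunit and light-harvesting transcripts were at 1370 and 1700 CPM in flower and 7350 and 2620 CPM in fruit, against 119 and 236 CPM in root and 108000 and 78500 CPM in leaf, so the reproductive organs lay between the vegetative ones. Of 222 heat shock factors and chaperones, 15 were called lower and 1 higher, a share of 7.21% close to the 6.3% of all genes. HSP70 (comp19465_c0, -1.82 ± 0.35) had 121 and 112 CPM in flower and 285 and 231 CPM in fruit, against 502 and 215 CPM in root and 1050 and 1050 CPM in leaf, and BAG1 (comp13731_c0, 1.37 ± 0.34), a co-chaperone, was higher, though not with the length offset (adjusted p = 0.0505).

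Enzymes of the plastid route to isoprenoids were among the genes called lower. Isoprenoids come from the plastid MEP pathway, which feeds monoterpenes, and the cytosolic mevalonate pathway. Of 9 MEP pathway genes, 4 were called lower, a share of 44.4% against 6.3% of all genes. The other 5 did not pass, and the median was -2.0 against -0.14 over all genes. DXR (comp22957_c0), the reductoisomerase at the committed step, had 199 and 114 CPM in flower and 86.5 and 43 CPM in fruit, against 569 and 89.1 CPM in root and 3550 and 2490 CPM in leaf (-3.31 ± 0.67). Root replicate 2 overlapped the reproductive libraries. A deoxyxylulose phosphate synthase, the entry enzyme, named Os07g0190000 (comp20919_c0, -5.08 ± 0.86), had 33.7 and 9 CPM in flower and 0.439 and 0.537 CPM in fruit, against 289 and 28.5 CPM in root and 57.4 and 93.4 CPM in leaf. Its namesake comp14158_c0 (-5.70 ± 1.28) had 3.17 and 0.509 CPM in flower and 0 and 0.146 CPM in fruit, against 39.3 and 4.33 CPM in root and 6.15 and 24.6 CPM in leaf. In both entries the fruit mean was lowest and the flower mean came next, but for comp20919_c0 flower replicate 1 lay above root replicate 2.

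Of 13 mevalonate pathway genes, 2 were called higher, a share of 15.4% against 6.3% of all genes. Another 2 passed as higher without a shared side, and the median was 1.45. HMGR1 (comp24342_c0), a reductase that makes mevalonate, had 486 and 506 CPM in flower and 73.8 and 56.4 CPM in fruit, against 58.6 and 20.6 CPM in root and 5.71 and 3.2 CPM in leaf (3.76 ± 0.43). HMGS (comp8081_c0), which makes its substrate, had 17.9 and 18.2 CPM in flower and 120 and 91.7 CPM in fruit, against 11.7 and 20.6 CPM in root and 7.92 and 12.2 CPM in leaf (1.78 ± 0.28). HMGR1 was highest in flower and HMGS in fruit, and each overlapped root in the other organ.

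Cytochrome P450 genes, many of which oxidise terpenoids, fell much more often than they rose. Of 148 tested, 15 were called lower and 1 higher, and a further 14 passed as lower without a shared side; the median was -0.81. Entries named CYP71A1, a symbol first given in avocado, had the highest levels among the P450 genes called lower. CYP71A1 (comp6371_c0) had 67.1 and 33.3 CPM in flower and 2.93 and 2.17 CPM in fruit, against 1320 and 140 CPM in root and 394 and 588 CPM in leaf (-5.73 ± 0.80). The entry comp19271_c0 (-3.23 ± 0.73) lay between 17.7 and 275 CPM in the reproductive libraries, against 168 to 1420 CPM in the vegetative ones. The entries comp11656_c0 (-6.76 ± 0.88) and comp16766_c0 (-6.32 ± 0.90) had at most 8.45 and 14.6 CPM in any reproductive library and at least 45.2 and 43.7 CPM in every vegetative one. All 4 entries, like the cineole synthase, were highest in root replicate 1, followed by leaf replicate 2. These IDs share a symbol, and reads of close copies may have been split between them. CYP707A1 (comp19388_c0, 3.50 ± 0.51), an abscisic acid hydroxylase in Arabidopsis, was the one called higher and had its highest level in fruit.

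Terpene synthases were called lower in 2 of 23 cases, passed as lower in 4 and as higher in 1, with a median of -1.54. The share called was 8.7% against 6.3% of all genes. 10HGO (comp22952_c0), named after a hydroxygeraniol oxidoreductase of monoterpene metabolism in periwinkle and described as a mannitol dehydrogenase, had 110 and 48.1 CPM in flower and 644 and 264 CPM in fruit, against 2320 and 787 CPM in root and 1160 and 723 CPM in leaf (-2.67 ± 0.56). UDP-glycosyltransferases join sugars to metabolites. Of 111 tested, 15 were called higher and 7 lower, a share of 19.8% against 6.3% of all genes, with a median of 0.01. UGT73C3 (comp11497_c0, 4.61 ± 0.50) had 6130 and 3090 CPM in flower and 187 and 78.3 CPM in fruit, against 72.5 and 52.1 CPM in root and 17.1 and 15.7 CPM in leaf. UGT74F2 (comp22897_c0, 3.89 ± 0.64) had 2280 and 1200 CPM in flower and 345 and 417 CPM in fruit, against 6.45 and 38.3 CPM in root and 105 and 164 CPM in leaf. UGT85A3 (comp19699_c0, -6.27 ± 1.09) had 0.858 and 0.0566 CPM in flower and 0.0878 and 0.561 CPM in fruit, against 854 and 102 CPM in root and 1.95 and 1.89 CPM in leaf. These 3 separated the sides, whereas UGT91A1 (comp20740_c0, -3.19 ± 0.79), also lower, did not, nor did it pass with the length offset (adjusted p = 0.0517).

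**Figure D3:**
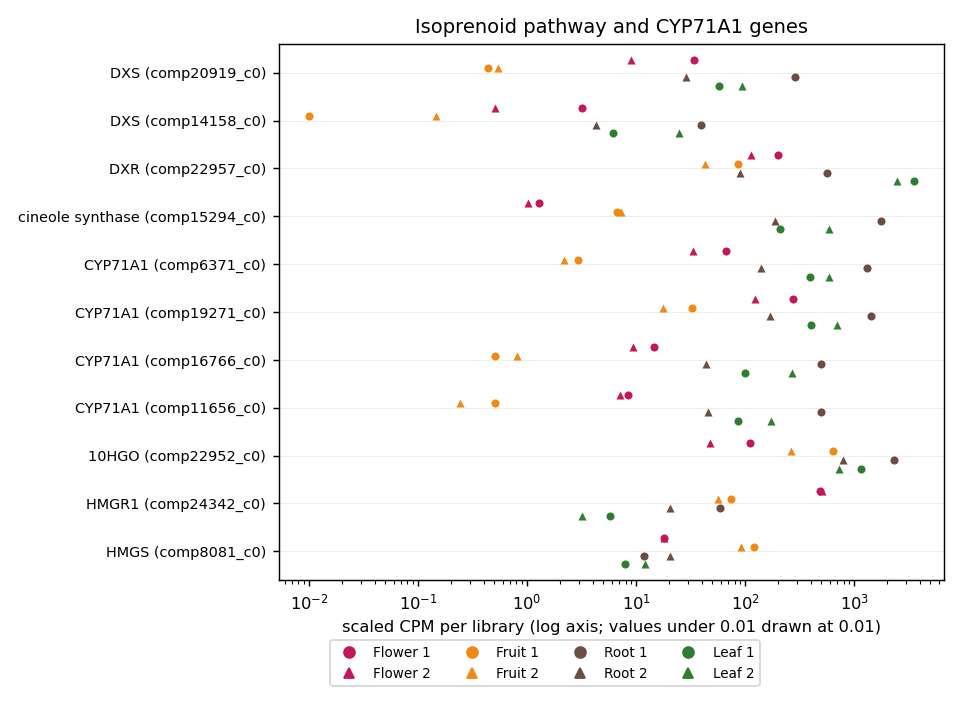
Scaled CPM of every library on a log axis for deoxyxylulose phosphate synthase (DXS), DXR, the cineole synthase, 4 CYP71A1 entries, 10HGO and the mevalonate genes HMGR1 and HMGS. In the upper genes root replicate 1 or leaf is rightmost and fruit or flower leftmost, as for comp6371_c0 with 1320 CPM in root replicate 1 and 2.17 CPM in fruit replicate 2, while HMGR1 is rightmost in flower at 486 and 506 CPM.

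Genes of phenolic metabolism went both ways. Of 52 shikimate, phenylpropanoid and BAHD acyltransferase genes, 6 were called higher and 5 lower, a share of 21.2%. Under the scale without the 20 highest genes the counts were 5 and 6. The 4-coumarate CoA ligase-like gene 4CLL10 (comp22918_c0) had 441 and 869 CPM in flower and 849 and 406 CPM in fruit, against 11.8 and 27.1 CPM in root and 53.9 and 51 CPM in leaf (4.33 ± 0.49). At3g50280 (comp22560_c0), a BAHD acyltransferase, had 506 and 252 CPM in flower and 1280 and 451 CPM in fruit, against 25.9 and 24.1 CPM in root and 0.885 and 4.7 CPM in leaf. Flower and fruit overlapped each other in these genes but not the vegetative organs. EMB3004 (comp20738_c0, -2.30 ± 0.51), of the shikimate pathway, and CYP98A2 (comp16191_c0, -1.65 ± 0.24), the hydroxylase of coumarate esters, were lower. Of 91 flavonoid and anthocyanin genes, 10 were called lower and 3 higher, a share of 14.3% against 6.3% of all genes. Another 7 passed as higher without a shared side, and the list median was 0.41. COMT1 (comp21660_c0, 4.45 ± 0.97), described like comp17663_c0 as a flavonol O-methyltransferase, had 3600 and 1290 CPM in flower and 3.03 and 54.6 CPM in fruit, against 12 and 5.48 CPM in root and 22.1 and 11.8 CPM in leaf. The lower genes included RT (comp20191_c0, -3.57 ± 0.28), a rhamnosyltransferase of anthocyanins named in petunia that the table describes as a hydroquinone glucosyltransferase, with 5.87 and 4.25 CPM in flower and 4.17 and 3.54 CPM in fruit, against 44.3 and 33.1 CPM in root and 55.1 and 87.8 CPM in leaf. TT8 (comp20592_c0, -1.12 ± 0.28), a proanthocyanidin regulator, was lower and did not pass with the length offset (-0.83, adjusted p = 0.106).

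Hormone genes moved in both directions within most lists. For auxin, 6 of 95 were called higher and 6 lower, a share of 12.6% against 6.3% of all genes. GH3.1 (comp21169_c0) had 220 and 230 CPM in flower and 18 and 13.5 CPM in fruit, against 1.84 and 12.9 CPM in root and 0.177 and 0 CPM in leaf. LAX4 (comp14960_c1, 8.06 ± 1.66), an auxin influx carrier, was at 128 and 70.6 CPM in flower and at most 0.439 CPM elsewhere. The receptor TIR1 (comp7077_c0, -2.10 ± 0.36) and the response factor ARF15 (comp19854_c0, -1.51 ± 0.23) were lower. For cytokinin, 3 of 50 were called higher and 5 lower, a share of 16%. With the length offset these counts were 1 and 4, and under the scale without the 20 highest genes only 5 lower ones were called. Entries named ARR2, a response regulator, that the table describes as pseudo-response regulators went both ways (comp20238_c0, 1.41 ± 0.34, and comp18684_c0, -1.15 ± 0.22). AHP1 (comp12049_c0, 1.04 ± 0.23), a phosphotransfer protein of the pathway, was higher and LOG8 (comp11396_c0, -1.81 ± 0.33), a cytokinin-activating enzyme, was lower. Of these 4, LOG8 alone passed with the length offset.

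For abscisic acid, 4 of 53 were called higher and 5 lower, a share of 17% against 6.3% of all genes. The lower count was 3 with the length offset and under the other scales. PYL11 (comp4244_c0, 5.81 ± 1.14) and PYL8 (comp7534_c0, -1.15 ± 0.23), receptors of one family, differed in direction. PYL11 had 78.3 and 51.3 CPM in flower and 14.4 and 4.12 CPM in fruit, against 0.223 and 3.17 CPM in root and 0 and 0.217 CPM in leaf. AIP2 (comp8036_c0, 1.73 ± 0.32), a ubiquitin ligase, was higher and HAB1 (comp15514_c0, -1.02 ± 0.21), a phosphatase that blocks the signal, was lower, though not with the length offset (-0.66, adjusted p = 0.0888). For ethylene, 6 of 39 were called higher and 2 lower, a share of 20.5% against 6.3% of all genes. Under the scale without the 20 highest genes the counts were 3 and 1. EBF1 (comp19865_c0, 2.76 ± 0.47), an F-box protein of the pathway, had 27.1 and 42.8 CPM in flower and 276 and 224 CPM in fruit, against 15.7 and 32 CPM in root and 3.72 and 12.3 CPM in leaf. ACS10 (comp21011_c0, -2.77 ± 0.31), described as a synthase of the ethylene precursor, was lower. Of 48 gibberellin genes, 1 was called higher and 3 lower, including SN1, SRG1 and GAST1 above. The share called was 8.33% against 6.3% of all genes.

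AP2/ERF factors, which include the ethylene response factors, were called higher more often than lower. Of 84 tested, 15 were called higher and 2 lower, a share of 20.2% against 6.3% of all genes. Of the rest, 60 did not pass, and the median was 0.82 against -0.14. Of the 15, 11 separated the sides, against 627 of all 971 genes called higher. EREBP1 (comp12574_c0) had 100 and 60.6 CPM in flower and 1040 and 608 CPM in fruit, against 78 and 37.9 CPM in root and 32.9 and 14.4 CPM in leaf (2.80 ± 0.45). ERF5 (comp16282_c0, 3.05 ± 0.74) had 194 and 67.5 CPM in flower and 556 and 244 CPM in fruit, against 13.6 and 42.6 CPM in root and 46.4 and 8.05 CPM in leaf. Both were highest in fruit, and EREBP1 overlapped between flower and root. ERF1A (comp21575_c0, 3.37 ± 0.48) was higher and ERF12 (comp4547_c0, -3.41 ± 0.60) lower. ERF12 was low in flower only, at 0.132 and 0 CPM. Its fruit, at 9.72 and 5.42 CPM, overlapped root at 9.47 and 6.25 CPM and leaf at 8.56 and 8.61 CPM.

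Other transcription factor families were divided. Of 88 MYB genes, 9 were called higher and 7 lower, a share of 18.2% against 6.3% of all genes. MYB305 (comp14131_c0, 8.53 ± 0.55), a floral regulator of phenylpropanoid genes named in snapdragon, had 1420 and 945 CPM in flower and 0.0878 and 0.0976 CPM in fruit, against 0 and 0.0171 CPM in root and 0.0442 and 0.087 CPM in leaf, so that fruit exceeded leaf by a trace amount. MYB44 (comp19927_c0, 2.67 ± 0.38), a stress regulator, was higher, and MYB3 (comp6357_c0, -1.81 ± 0.35) and RL3 (comp7203_c0, -2.05 ± 0.45) were lower. Of 76 bHLH genes, 7 were called lower and 1 higher, a share of 10.5%. UPB1 (comp13319_c0), at 20.6 and 7.36 CPM in flower and 0.0293 and 0 CPM in fruit, had no vegetative counts and was at least 319-fold higher against 3 counts over the vegetative libraries. BHLH30 (comp13812_c0, -3.67 ± 0.40) was lower.

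Of 30 NAC genes, 2 were called higher and 1 lower, a share of 10% against 6.3% of all genes. NAC025 (comp16355_c0, 4.93 ± 0.71) had 59.6 and 43.1 CPM in flower and 37.9 and 91.7 CPM in fruit, against 0.689 and 3.58 CPM in root and 2.57 and 0.783 CPM in leaf. NAC072 (comp17477_c0, 3.50 ± 0.64), a drought response gene in Arabidopsis, was higher and NAC078 (comp22152_c0, -3.81 ± 0.84) lower. Of 68 TCP, SPL and GRAS genes, 6 were called higher and 2 lower, a share of 11.8%. Among them were the GRAS genes SCL8 (comp7666_c0, 2.34 ± 0.46), SCL14 (comp22284_c0, 1.62 ± 0.32), SCL23 (comp22093_c0, -1.83 ± 0.32) and CIGR2 (comp2472_c0, -3.77 ± 0.73). Of 53 WRKY genes, 1 was called lower, a share of 1.89%.

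Calcium and vesicle traffic genes were called higher more often than lower. Of 148 calcium sensor and kinase genes, 21 were called higher and 7 lower, a share of 18.9% against 6.3% of all genes. CML49 (comp20914_c0, 2.08 ± 0.28), a calmodulin-like protein, had 536 and 413 CPM in flower and 261 and 170 CPM in fruit, against 79.5 and 56.6 CPM in root and 88.8 and 78.4 CPM in leaf. The kinase CIPK11 (comp18477_c0, 2.78 ± 0.46) was higher, and its relative CIPK5 (comp14937_c0, -2.47 ± 0.28) and BETVIII (comp20739_c0, -4.71 ± 0.75), a calcium-binding protein, were lower. The fall of BETVIII came from leaf, at 79.6 and 173 CPM. Its root, at 0.507 and 0.359 CPM, overlapped flower at 0.66 and 0 CPM. Of 82 ARF, RAB and ROP GTPases, the switches of vesicle traffic, 16 were called higher and 1 lower, a share of 20.7%. With library totals that left out the 20 highest genes as the scale, 8 were called higher and 3 lower. GBA2, 1 of the 16, entered the list by its symbol, which is also that of a glucosylceramidase, an enzyme of sphingolipid breakdown. The table gives it no description and a length of 3186 bases, so it may not be a GTPase. GBA2 (comp16016_c0, 2.52 ± 0.28) had 775 and 824 CPM in flower and 60.6 and 42.4 CPM in fruit, against 37.9 and 57.7 CPM in root and 25.7 and 26.7 CPM in leaf. ARF (comp7343_c0, 1.23 ± 0.25) was higher and RABA3 (comp21783_c1, -2.75 ± 0.57) lower.

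Of 397 ubiquitin, E2 and E3 ligase genes, 31 were called higher and 6 lower, a share of 9.32% against 6.3% of all genes. Under the scale without the 20 highest genes, 19 were called higher and 5 lower. ATL80 (comp17297_c0, 3.44 ± 0.55), a RING ligase, had 1270 and 1620 CPM in flower and 105 and 32.9 CPM in fruit, against 39.2 and 53.5 CPM in root and 27.2 and 9.16 CPM in leaf. The conjugating enzyme comp7248_c0 (1.24 ± 0.29) was higher, and RGLG1 (comp21529_c0, -1.71 ± 0.23) and ATL79 (comp16665_c0, -3.48 ± 0.39) were lower. Of 339 receptor-like kinases, 23 were called lower and 12 higher, a share of 10.3% against 6.3% of all genes. The highest levels among those called belonged to a pair of leucine-rich repeat genes named DRT100, which had 5890 and 4280 CPM in flower and 263 and 112 CPM in fruit (comp20540_c0, 4.94 ± 0.59), against 22.6 and 18.6 CPM in root and 74.8 and 23.9 CPM in leaf. The other, comp18679_c0 (4.57 ± 0.45), was also highest in flower, with 78.3 and 42.7 CPM in fruit, against 26.4 and 24.2 CPM in root. The table describes both as protein-serine/threonine kinases, with lengths of 1509 and 1177 bases. Whether they are receptor kinases was not checked, and they may not be. IKU2 (comp22953_c0, -3.20 ± 0.30), a kinase known for seed size in Arabidopsis, had 13.8 and 11.5 CPM in flower and 13.2 and 19.6 CPM in fruit, against 248 and 141 CPM in root and 80.6 and 100 CPM in leaf. BAM1 (comp14851_c0, -2.02 ± 0.44) was lower as well and did not pass with the length offset (adjusted p = 0.0554).

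Of 186 ABC and MATE transporters, which move metabolites across membranes, 16 were called lower and 1 higher and 156 did not pass. The share called was 9.14% against 6.3% of all genes, and the median was -0.81 against -0.14. ABCC2 (comp14458_c0, -1.52 ± 0.31), of a vacuolar subfamily, had 56.6 and 115 CPM in flower and 96.9 and 107 CPM in fruit, against 243 and 312 CPM in root and 230 and 286 CPM in leaf. OsABCB25 (comp15488_c0, -1.13 ± 0.20) was lower too. With the length offset the pair stood at -0.90 and -0.86 and did not pass. DTXL1 (comp18440_c0, 2.83 ± 0.34), a MATE transporter, was the one called higher. Of 223 mineral and water transport genes, 7 were called higher and 8 lower (7 and 6 with the length offset), a share of 6.73% close to the 6.3% of all genes. COPT5 (comp7548_c0, 2.88 ± 0.41), a copper carrier, and ZIP6 (comp19640_c0, 1.73 ± 0.40), of the zinc and iron carriers, were higher. KEA1 (comp22773_c0, -1.44 ± 0.24) and HMA1 (comp15342_c0, -1.23 ± 0.24), an ion exchanger and a metal ATPase of plastids, were lower and did not pass with the length offset (-0.92 and -0.87). Of 51 proton pump genes, 4 were called lower, while 4 others passed as higher without a shared side, and the median was 0.76. Among those called lower was PPA1 (comp15950_c0, -1.82 ± 0.24), described as an inorganic pyrophosphatase. Its length was 1092 bases against 2821 for AVP1, and it may not be a proton pump. The share called was 7.84% against 6.3% of all genes. Under the scale without the 20 highest genes, 2 were called higher and 3 lower. AVP1 (comp7277_c0, -1.84 ± 0.34), the vacuolar proton pyrophosphatase, had 377 and 406 CPM in flower and 797 and 521 CPM in fruit, against 2780 and 2200 CPM in root and 1500 and 1150 CPM in leaf.

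RNA processing and translation genes were called lower more often than higher. Of 198 RNA silencing, helicase and RNA processing genes, 22 were called lower and 11 higher, a share of 16.7% against 6.3% of all genes. Under the scale without the 20 highest genes the counts were 14 and 7. CAF1-11 (comp11062_c0, 2.45 ± 0.55), a deadenylase, and RNP1 (comp6967_c0, 1.73 ± 0.26) were higher, and PAB2 (comp6943_c0, -1.24 ± 0.29), a poly(A) binding protein, and RDR1 (comp23285_c0, -1.27 ± 0.23), an RNA-dependent RNA polymerase, were lower. RDR1 did not pass with the length offset (-0.76, adjusted p = 0.12). Of 164 aminoacyl-tRNA synthetases and translation factors, 12 were called lower and 4 higher, a share of 9.76% against 6.3% of all genes. With the length offset 7 were called lower, and without TAR1-A 6. EIF5A3 (comp7185_c0, 2.92 ± 0.39) had 450 and 226 CPM in flower and 60.3 and 88.5 CPM in fruit, against 57.2 and 29.8 CPM in root and 12.6 and 7.63 CPM in leaf. EIF-5A2 (comp23452_c0, 1.28 ± 0.26) was higher, and GLYRS-1 (comp12163_c0, -1.29 ± 0.21) and ileS (comp23198_c0, -2.03 ± 0.32), synthetases for glycine and isoleucine, were lower. Cytosolic ribosomal proteins hardly took part, with 1 of 238 called higher and 1 lower, a share of 0.84%, and a median of 0.02. Of 280 cell cycle, replication and histone genes, 12 were called lower and 6 higher, a share of 6.43% close to the 6.3% of all genes, and 8 and 4 with the length offset. A histone H2B named At1g07790 (comp24336_c0, 2.94 ± 0.25) had 68.4 and 82 CPM in flower and 9.56 and 6.52 CPM in fruit, against 2.27 and 2.79 CPM in root and 4.69 and 3.41 CPM in leaf. Rfc5 (comp25732_c0, 1.21 ± 0.24), a replication factor subunit, was higher. MAP65-6 (comp7698_c0, -1.75 ± 0.28), a microtubule bundling protein, and the ribonucleotide reductase subunit comp15729_c0 (-2.0 ± 0.47) were lower, the last not with the length offset (adjusted p = 0.0517). Of 25 fermentation genes 1 was called higher and 1 lower, and of 65 clock and light signalling genes 3 and 1. Of 88 genes often used as controls, 4 were called higher, and 2 under the scale without the 20 highest genes. The shares called in these lists were 8%, 6.15% and 4.55%, against 6.3% of all genes.

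**Figure D4:**
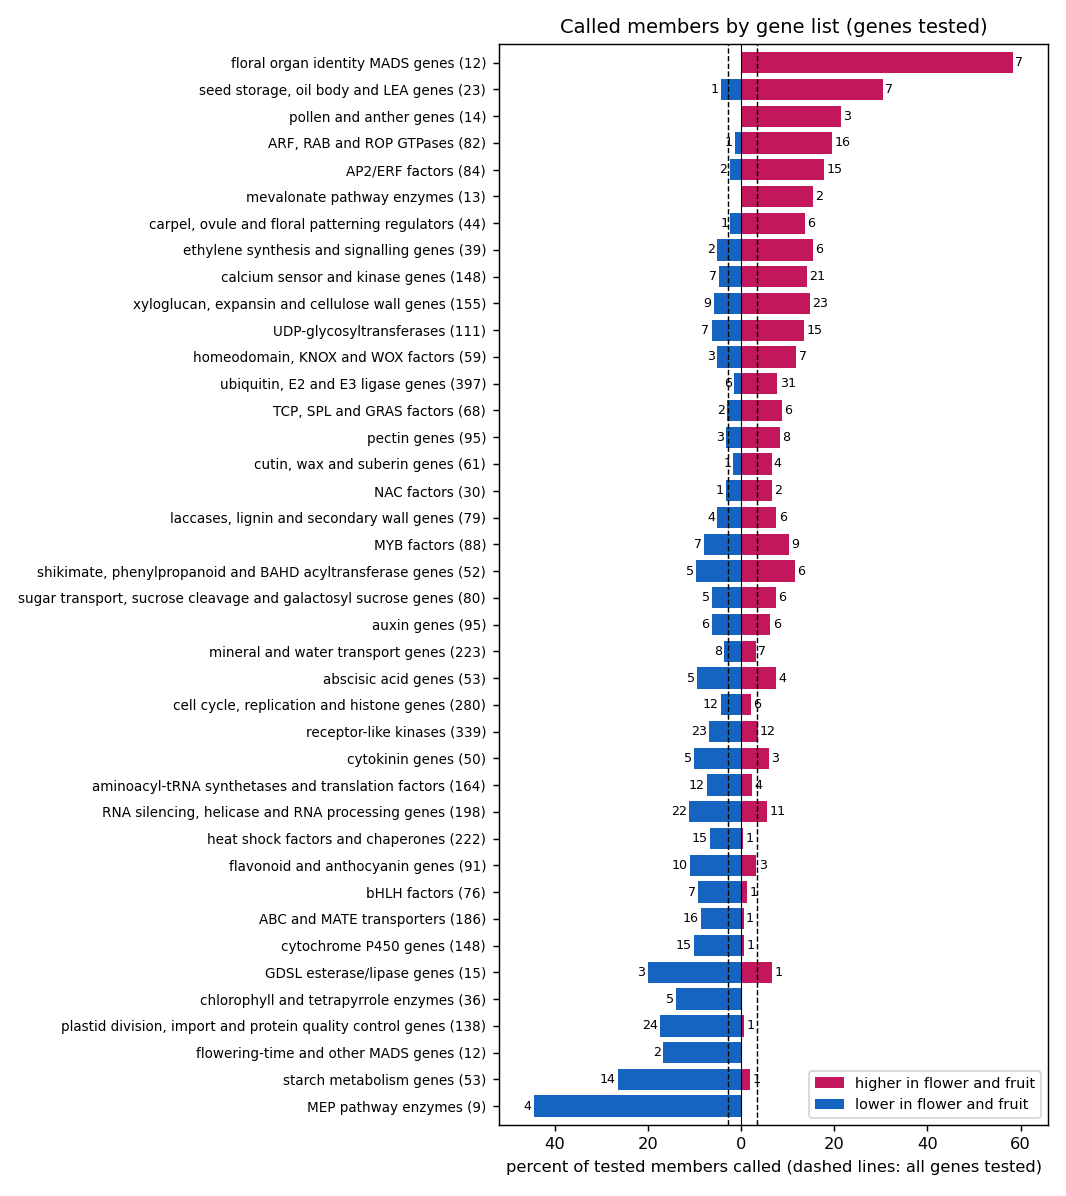
Share of tested members called higher (right) and called lower (left) in each gene list with at least 5 called members or at least 10% called; numbers at the bars are called genes and numbers in brackets genes tested. Floral MADS genes lead on the right with 7 of 12 and MEP pathway genes on the left with 4 of 9, and the dashed lines mark 3.48% and 2.83% over all genes tested.

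Among annotated, non-overlapping genes at the highest levels, the 6 higher ones were the DRT100 pair, UGT73C3, LAC14, FBA and FATB, and the 6 lower ones were AVP1, 10HGO, AGPP, comp21453_c0, the cineole synthase and CYP71A1 (comp6371_c0). FBA (comp11537_c0, 2.97 ± 0.51), a class I aldolase of glycolysis, had 1520 and 1370 CPM in flower and 823 and 1320 CPM in fruit, against 745 and 190 CPM in root and 55.5 and 51.7 CPM in leaf. FATB (comp15675_c0, 2.69 ± 0.31), which releases saturated fatty acids in plastids, had 1990 and 1530 CPM in flower and 466 and 333 CPM in fruit, against 104 and 91 CPM in root and 161 and 186 CPM in leaf. The ATP and ADP carrier comp21453_c0 (-2.21 ± 0.43) had 73.8 and 69.5 CPM in flower and 117 and 218 CPM in fruit, against 1410 and 486 CPM in root and 265 and 274 CPM in leaf. In FBA the highest root library came close to the lowest fruit library, as the highest fruit library did to the lowest leaf library for the carrier, and in FATB the sides were farther apart.

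Gene length moved with direction. Genes called higher had a median length of 869 bases and those called lower of 1314.5 bases, against 647 bases over all genes tested. Of genes over 3000 bases, 0.554% were called higher and 10.1% lower, and of those up to 500 bases 1.38% and 1.13%. Over 3000 bases the median deviation from each gene's mean was -0.75 and -0.31 in flower and -0.01 and 0.06 in fruit, against 0.40 and 0.29 in root and 0.12 and 0.04 in leaf, on log2(CPM + 0.5) for genes with a mean of at least 4 CPM. With an offset for this trend in each library, 991 genes were called higher and 702 lower, and 147 of the 165 named genes passed in the same direction. The part of length in these counts beyond this was not tested. List shares set against 6.3% of all genes were not matched for length.

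**Figure D5:**
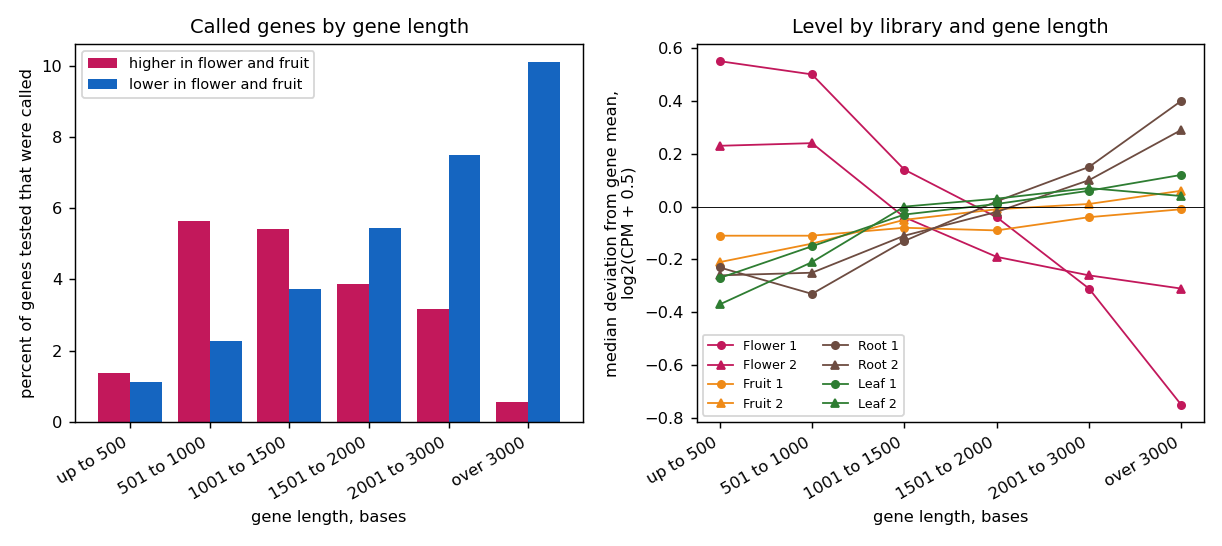
Left, percent of tested genes called higher or lower by gene length in bases; right, median deviation of each library from the gene's mean by length, on log2(CPM + 0.5). Calls run from 1.38% higher and 1.13% lower up to 500 bases to 0.554% and 10.1% over 3000 bases, and the flower lines fall with length to -0.75 and -0.31 while the root lines rise to 0.40 and 0.29.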

How the data were processed

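One gene table was used. Its estimated counts, TPM and RPKM per library were made by the authors with an assembler, counter and strand setting not given in the sources used here. Per the file headers it also holds gene lengths, symbols and KEGG descriptions. Of the deposited count values, at least 97.98% per library were whole to within 0.005; all were rounded. RPKM was not used.

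Genes were filtered by filterByExpr on organ, which kept 27939 of 30177, scaled by TMM and fitted in edgeR 4.0.16 under R 4.3.3 with quasi-likelihood F tests and organ as the model term. The contrast was the mean of flower and fruit minus the mean of root and leaf. There were 4 residual degrees of freedom. Standard errors were the log2 fold change divided by the square root of F. Fold bounds set a side without counts to 3 counts, and ratios with 1 to 3 counts have exact 95% intervals that cover counting error only. The procedure was tested on simulated data.

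Genes named were, per list, up to 2 higher and 2 lower with the highest mean CPM; the 12 higher and 12 lower annotated genes of largest change with at least 10 CPM in both organs of the high side and no overlap; and the 6 and 6 most abundant annotated genes without overlap. Lists with at least 5 called members or 10% called were described, the others counted. Lists were drawn by symbol or description, and members and lists were chosen with earlier results of these data known. Some lists share members, so their counts are not separate results. ERF12 was in the ethylene and AP2/ERF lists, and comp18072_c0 in the plastid and chaperone lists. Of the 165 named genes, 96 share a symbol with another tested gene, and reads of close copies or antisense genes may be split or mixed.

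Alternatives were RLE scaling, DESeq2 1.42.0, no filter, limma 3.58.1 on log2(TPM + 1), removal of TAR1-A, a replicate block, each library left out and stricter margins. Added after seeing the data were length offsets, removal of flower replicate 2 and fruit replicate 2 with them, and totals without the 20 highest genes.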

Additional observations from a re-analysis of the deposited data

Results flagged for a closer look

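Among the genes of largest change, 5 were picked out because flower and fruit differed from each other beyond the replicate spread, so that their effects against the same root and leaf libraries differ. The difference itself was tested as flower minus fruit with edgeR's quasi-likelihood test, adjusted over all genes. At4g24660 (comp16517_c0) was higher in flower by a log2 fold change of 5.25 ± 0.57 (adjusted p = 0.00592). CYP71A1 was higher in flower for comp11656_c0 at 4.33 ± 1.14 (adjusted p = 0.0484) and for comp6371_c0 at 4.30 ± 1.07 (adjusted p = 0.0419). SRG1 (comp23275_c0) was lower in flower, with -7.16 ± 0.54 (adjusted p = 0.00459), as was At2g25790 (comp19943_c0), with -3.59 ± 0.79 (adjusted p = 0.0302). The flower level of SRG1, at 0.066 and 0.0566 CPM, rested on few counts. No counting interval was computed for this difference, so its size is loosely fixed. Each of the 5 genes had its 2 flower libraries on one side of its 2 fruit libraries. At4g24660 and SRG1 kept the call without each library in turn. At2g25790 and both CYP71A1 entries lost it without any one of the flower, fruit or leaf libraries. The call of comp11656_c0 was also lost under RLE scaling, without the filter, on log2(TPM + 1), without TAR1-A, with the replicate block, with length offsets and under totals without the 20 highest genes, and that of comp6371_c0 without the filter and on log2(TPM + 1). The direction was kept in all these fits, and no call remained for any of the 5 without both flower replicate 2 and fruit replicate 2.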

How the results depend on the processing

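With other tools the calls grew: DESeq2 passed 2858 higher and 2735 lower, of which 1748 and 1444 lay on one side, with 693 of the lower ones separated, and log2(TPM + 1) passed 2491 and 2318. Stricter rules gave 413 and 313 genes with a margin of 1 log2 unit, and 40 and 29 in all 4 pairs. Leaving out each library gave 19 to 1015 higher and 16 to 1082 lower genes that passed, 15 to 675 and 13 to 681 on one side, and 13 to 544 and 13 to 563 separated; flower against fruit among the named genes gave 9 to 37 higher and 3 to 24 lower in flower. Without both flower replicate 2 and fruit replicate 2, edgeR called 0 genes in each of these counts, with 2 residual degrees of freedom, a lowest adjusted p of 0.0789 and 6904 genes at an unadjusted p under 0.05; 929 of the 971 and 649 of the 790 kept their side. With length offsets as well it called 0, with a lowest adjusted p of 0.0827 and 6748 genes unadjusted. Under totals without the 20 highest genes, 21 named genes were higher in flower than fruit. The cause of these changes was not tested, beyond fewer samples in the fits that leave libraries out. The replicate block gave 1317 higher and 1299 lower genes that passed, 884 and 690 on one side, with 145 of the 165 named genes still passing. The labels tie replicate numbers to no shared plant or day. With 2 numbers, the deviations of same-numbered libraries correlated at -0.145 to 0.405 over the pairs of organs. These values cannot tell whether same-numbered libraries shared a plant, day or batch. The block lowered UDP-glycosyltransferases called lower to 3, and cytokinin and control genes called higher to 1 each. No named gene changed sign under any setting. Named genes and the 971 and 790 were chosen by direction in the same libraries, so kept signs and sides are no separate support. With 2 libraries per organ and a common biological coefficient of variation of 0.667, small changes could not be detected.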
